A study of Homo sapiens with 2 samples.

Results

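The genes examined are 10 members of the NF-kB system of HaCaT keratinocytes: the subunit genes NFKB1, NFKB2 and RELB, the inhibitor and IkB-family genes NFKBIA, NFKBIZ, TNFAIP3 and TNIP1, and the signalling adaptor genes TRAF1, BIRC3 and IRAK2. They were taken by symbol from a gene table of 15159 genes, and all 10 were found. HaCaT cells are human skin keratinocytes that grow without limit through a spontaneous change and not through an added oncogene. The FLI1 library comes from cells transfected with MigR1-Fli1, a MigR1 plasmid with the gene of the ETS factor FLI1, and the vector library from cells given the empty MigR1. Both dishes got 4 µg of DNA with a lipid reagent, a medium change after 6 hours, a check for GFP and RNA extraction 2 days after transfection. The study asks how FLI1 relates to inflammatory genes of psoriasis. The labels do not give the share of cells that took up DNA, and in RNA from a whole dish a large difference in few cells and a small one in all cells cannot be told apart.

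NF-kB is a family of dimeric transcription factors that IkB proteins hold in the cytoplasm. Receptors for TNF, interleukin-1 and microbial products act through TRAF, IRAK and ubiquitin ligase proteins on the IkB kinase complex, which marks IkB for destruction and frees the dimer. Freed NF-kB switches on genes of inflammation together with its own subunits, inhibitors and adaptors, so the system carries built-in feedback. In epidermis it stands downstream of the cytokines of psoriasis, and variants near TNFAIP3 and TNIP1 are known to be associated with that disease.

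Depth was similar in both libraries, with 14677290 reads in the FLI1 library and 14497121 in the vector library once estimated counts had been rounded. Each group is 1 library, so no value below has a replicate check or a p-value. Each ratio below compares these 2 libraries, FLI1 over vector, after TMM scaling, and its 95% interval covers the error of counting alone, and the reads, which carry no molecular identifiers, are not independent molecules. FLI1 itself had 2452 reads in the FLI1 library and 64 in the vector library (log2 ratio 5.26, interval 4.91 to 5.65). All 8 keratinocyte markers were present, from 56.81 to 2597.84 FPKM in the FLI1 library and from 53.03 to 3147.49 FPKM in the vector library. FPKM is the read number scaled to transcript length and library depth. PTPRC and CD3E, which mark leukocytes and T cells, are not listed, and the 4 leukocyte markers in the table summed to 0.75 FPKM in the FLI1 library and 0.73 in the vector library. The 5 endothelial markers summed to 0.75 and 0.43 FPKM, most of it VWF, the 5 fibroblast markers to 1.20 and 1.23 FPKM, and the 5 melanocyte markers to 3.86 and 0.30 FPKM, most of the 3.86 being PMEL. TYR, PECAM1, TEK, DCN, LUM and PDGFRA are not listed, and the part of these cell types in the ratios below was not tested.

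A gene entered the comparison once either library held 20 or more of its reads, and all 10 had that many in both. In each the counts were whole to within 0.01 reads in both libraries. Every ratio was above 0 in the FLI1 library, 8 of the 10 with an interval wholly above 0. Of the 11659 genes that reached 20 reads in either library, 16.5% had an interval above 0 and 14.7% one below it. The number at least 2-fold higher was 3 of 10, against 1.19% of all genes past the filter, and 0 of 10 were at least 2-fold lower, against 0.48%. Of these 3, TNFAIP3 and TRAF1 had an interval wholly above 2-fold under TMM scaling and IRAK2 did not. The count was 2 with 0.5 added to FPKM or TPM, and 1, TNFAIP3, with 1 added to FPKM or at a minimum of 100 reads. At a size of 1.5-fold, chosen after the values were seen, 5 were higher and 0 lower, against 3.51% and 2.09% of all genes past the filter. The median log2 ratio was 0.56 for the 10 genes and -0.0036 for all genes past the filter. The 10 genes were chosen with earlier results of these data known, so their excess over all genes may partly be set by that choice. By role, the medians were 0.10 for the 3 subunits, 0.72 for the 4 inhibitor and IkB-family genes and 1.09 for the 3 adaptors, with no test between the roles as groups. The adaptor median is the value of IRAK2, and at a minimum of 100 reads the only adaptor left is BIRC3 (0.33), below all 4 inhibitor and IkB-family genes. Counting error does not tell BIRC3 apart from TNIP1, the lowest of the 4 (TNIP1 over BIRC3 1.10, interval 0.997 to 1.21).

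**Figure D1:**
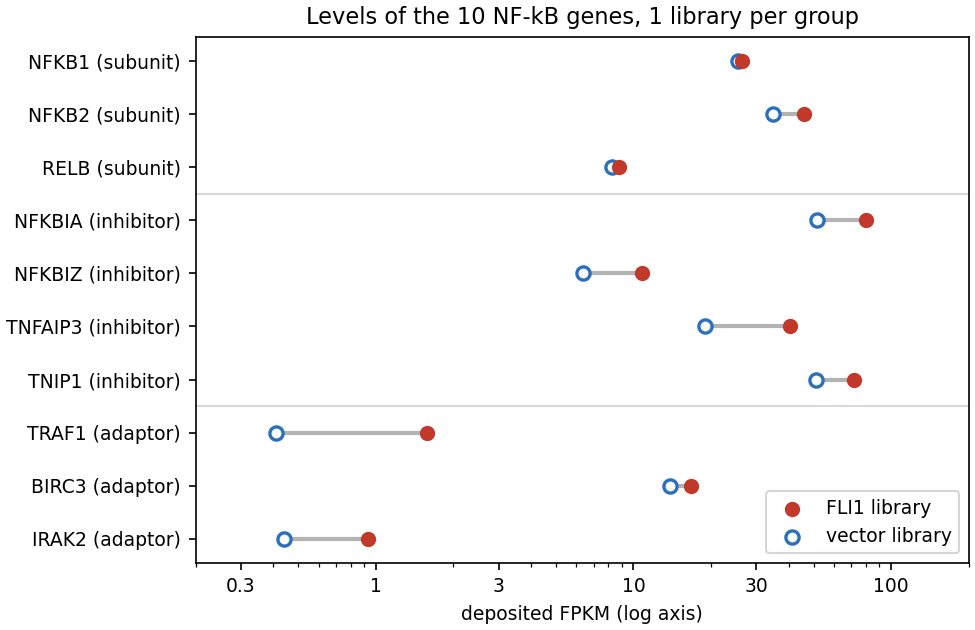
Deposited FPKM (log axis) of each of the 10 genes, grouped by role from top to bottom; filled points are the FLI1 library and open points the vector library, 1 library each. NFKBIA (80.10 and 51.58 FPKM) and TNIP1 (71.66 and 50.97 FPKM) sit highest, TRAF1 (1.58 and 0.41 FPKM) and IRAK2 (0.93 and 0.44 FPKM) lowest, and each filled point lies to the right of its open point.

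The levels spanned a wide range. By FPKM, the order in the FLI1 library was NFKBIA, TNIP1, NFKB2, TNFAIP3, NFKB1, BIRC3, NFKBIZ, RELB, TRAF1 and IRAK2, and each gene stood above the next beyond counting error. In the vector library the order was NFKBIA, TNIP1, NFKB2, NFKB1, TNFAIP3, BIRC3, RELB, NFKBIZ, IRAK2 and TRAF1. There, 2 neighbouring pairs did not differ beyond counting error: NFKBIA over TNIP1 (FPKM ratio 1.01, interval 0.935 to 1.09) and IRAK2 over TRAF1 (1.07, 0.562 to 2.03). Between the libraries, TNFAIP3 and NFKB1, and NFKBIZ and RELB, had changed places. TRAF1 and IRAK2 also stood in the other order, but a change of places is not shown for them, because the vector library does not tell them apart. Summed over the 4 inhibitor and IkB-family genes, FPKM was 202.9 in the FLI1 library and 127.94 in the vector library. Summed over the 3 subunits it was 80.92 in the FLI1 library and 68.60 in the vector library, so the first sum was 2.51 times the second in the FLI1 library and 1.87 times in the vector library. The first sum leaves out the IkB genes NFKBIB, NFKBIE, NFKBID, NFKBIL1 and BCL3, and the second leaves out the subunit genes RELA and REL. RELA had 41.23 FPKM in the FLI1 library and 33.56 in the vector library, and REL had 7.27 and 6.82.

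Stretches of the promoters are shown first for the genes that hold an NF-kB consensus, because NF-kB feedback is known to act through such sites and a reader can see how alike they are. The sequences are RefSeq's (build GRCh38.p14), from windows of 250 bases before to 50 bases after an annotated start. Of the 10 genes, 9 matched, with 16 windows among them. RELB had no window, so its promoter was not searched. They are printed 5′ to 3′ on the gene's strand, with each match to the consensus on either strand in capitals. NFKBIA lies on chr14:35404796-35404855, minus strand, and TNFAIP3 on chr6:137867167-137867238, plus strand. TNIP1 lies on chr5:151081042-151081101, minus strand, and NFKB1 on chr4:102501285-102501344, plus strand. The stretches of NFKBIZ are chr3:101827742-101827801 and chr3:101849264-101849309, that of NFKB2 is chr10:102394446-102394534 and that of BIRC3 is chr11:102317260-102317383, all on the plus strand.
NFKBIA: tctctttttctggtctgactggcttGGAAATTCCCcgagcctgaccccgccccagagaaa
TNFAIP3: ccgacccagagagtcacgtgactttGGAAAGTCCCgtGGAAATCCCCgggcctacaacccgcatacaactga
TNIP1: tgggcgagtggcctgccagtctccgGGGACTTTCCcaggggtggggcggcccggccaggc
NFKBIZ, upstream start: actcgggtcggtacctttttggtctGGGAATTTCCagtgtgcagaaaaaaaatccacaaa
NFKBIZ, downstream start: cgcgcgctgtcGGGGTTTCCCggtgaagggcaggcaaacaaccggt
NFKB1: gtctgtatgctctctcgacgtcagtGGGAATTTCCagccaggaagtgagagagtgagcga
NFKB2: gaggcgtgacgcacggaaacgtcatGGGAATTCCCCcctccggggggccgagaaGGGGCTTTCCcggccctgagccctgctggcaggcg
BIRC3: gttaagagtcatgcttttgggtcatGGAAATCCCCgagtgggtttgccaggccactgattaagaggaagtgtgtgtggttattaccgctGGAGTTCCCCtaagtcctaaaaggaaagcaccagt

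NFKBIZ upstream of its first start and NFKB1 hold the same site, GGGAATTTCC, and TNIP1 holds GGGACTTTCC, which also lies in a further window of NFKB2 that is not printed. On the opposite strand NFKBIA also holds GGGAATTTCC, printed above as GGAAATTCCC. TNFAIP3 likewise holds GGGACTTTCC on the opposite strand, printed as GGAAAGTCCC. TNFAIP3 and BIRC3 both hold GGAAATCCCC. In NFKB2, 2 overlapping matches form the first run of capitals. In all, 9 of the 16 windows, from 7 of the 9 genes, held the consensus, against 5.91% of the 35116 windows in the RefSeq table. The windows of TRAF1 and IRAK2 held no match. The ETS-type motif CCGGAAGT, of the kind bound by FLI1 and its relatives, was in 0 of the 16 windows on either strand, against 4.14% of all windows. At that share 16 windows are too few to show a lack of the motif. Other ETS-type sequences were not searched. The printed stretches of NFKB1 and BIRC3 hold GGAAGT, the last letters of this motif, without the CC before them. A match is a string of letters in a short window and no measure of binding, and distant sites were not searched.

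Among the subunits, NFKB2 was higher in the FLI1 library while for NFKB1 and RELB no difference was detectable at this depth. NFKB2 (gene ID 4791, chromosome 10 from 102394110 to 102402529 in GRCh38) encodes a precursor whose processing yields the DNA-binding subunit of the non-canonical pathway. It had 1880 reads in the FLI1 library and 1418 in the vector library, or 45.81 and 34.86 FPKM (log2 ratio 0.41, interval 0.31 to 0.52). NFKB1 (gene ID 4790, chromosome 4 from 102501329 to 102617302) encodes the precursor of the classical DNA-binding subunit. It had 1390 reads in the FLI1 library and 1333 in the vector library, or 26.34 and 25.49 FPKM (0.07, -0.04 to 0.18). These reads place its fold between 0.972 and 1.13. RELB (gene ID 5971, chromosome 19 from 45001430 to 45038198), the transactivating partner of the NFKB2 product, had 250 reads in the FLI1 library and 235 in the vector library, or 8.77 and 8.25 FPKM (0.10, -0.17 to 0.36). The ratio of NFKB2 was 1.27 times that of NFKB1 (interval of this quotient 1.15 to 1.41).

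All 4 inhibitor and IkB-family genes were higher in the FLI1 library, and TNFAIP3 was the member of this group with the largest ratio. TNFAIP3 (gene ID 7128, chromosome 6 from 137867188 to 137883312) encodes a ubiquitin-editing enzyme that shuts off signalling below the TNF receptor. It had 2604 reads in the FLI1 library and 1206 in the vector library, or 40.32 and 19.00 FPKM. The log2 ratio was 1.12 (interval 1.02 to 1.22), a fold of 2.17 whose whole interval, 2.03 to 2.33, lies above 2-fold. With library totals in place of TMM the log2 ratio was 1.09, and the lower limit then falls just below 2-fold. By FPKM the gene stood at rank 2306 of the table in the FLI1 library and at rank 4496 in the vector library. An antisense gene, AL357060.1, shares exon sequence with TNFAIP3 on the opposite strand in GENCODE release 29. The strand setting of the counting is not given in the sources used here, so reads of these 2 genes cannot be told apart. None of the other 9 genes overlaps another gene in that annotation.

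NFKBIA (gene ID 4792, chromosome 14 from 35401511 to 35404749, minus strand) encodes the IkB protein that NF-kB itself restores within the feedback loop. It had 1502 reads in the FLI1 library and 960 in the vector library, or 80.10 and 51.58 FPKM (log2 ratio 0.65, interval 0.54 to 0.77). Of the 10 genes it showed the largest difference in FPKM, 28.52 higher in the FLI1 library, followed by TNFAIP3 at 21.32 and TNIP1 at 20.69. NFKBIZ (gene ID 64332, chromosome 3 from 101827991 to 101861022) encodes a nuclear IkB-family protein, which in keratinocytes is best known as a coactivator of interleukin-17 and interleukin-36 responses rather than as an inhibitor. It had 573 reads in the FLI1 library and 336 in the vector library, or 10.82 and 6.39 FPKM (0.78, 0.58 to 0.98). TNIP1 (gene ID 10318, chromosome 5 from 151029945 to 151093577, minus strand), a ubiquitin-binding partner of the TNFAIP3 protein, had 2532 reads in the FLI1 library and 1844 in the vector library, or 71.66 and 50.97 FPKM (0.47, 0.38 to 0.55).

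The adaptors held the largest ratio of the 10 genes and also a small one. TRAF1 (gene ID 7185, chromosome 9 from 120902393 to 120929173, minus strand), a TRAF-family adaptor that partners TRAF2 at TNF-family receptors, had 93 reads in the FLI1 library and 24 in the vector library, or 1.58 and 0.41 FPKM. Its log2 ratio was 1.94 (interval 1.30 to 2.67), which is 3.84-fold with an interval from 2.47 to 6.38. IRAK2 (gene ID 3656, chromosome 3 from 10164865 to 10243743), a kinase-family adaptor below interleukin-1 and Toll-like receptors, had 43 reads in the FLI1 library and 20 in the vector library, or 0.93 and 0.44 FPKM. Its log2 ratio was 1.09 with a wide interval, 0.32 to 1.96, so these reads do not settle whether it passed 2-fold. BIRC3 (gene ID 330, chromosome 11 from 102317450 to 102339403), a ubiquitin ligase of TNF receptor complexes that also restrains cell death, had 1581 reads in the FLI1 library and 1264 in the vector library, or 16.74 and 13.82 FPKM (0.33, 0.22 to 0.44). TRAF1 and IRAK2 were thus the least abundant of the 10 genes in both libraries. With a minimum of 100 reads they drop out, and 6 of the 8 remaining genes had an interval above 0, against 17.4% of all genes at that minimum.

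**Figure D2:**
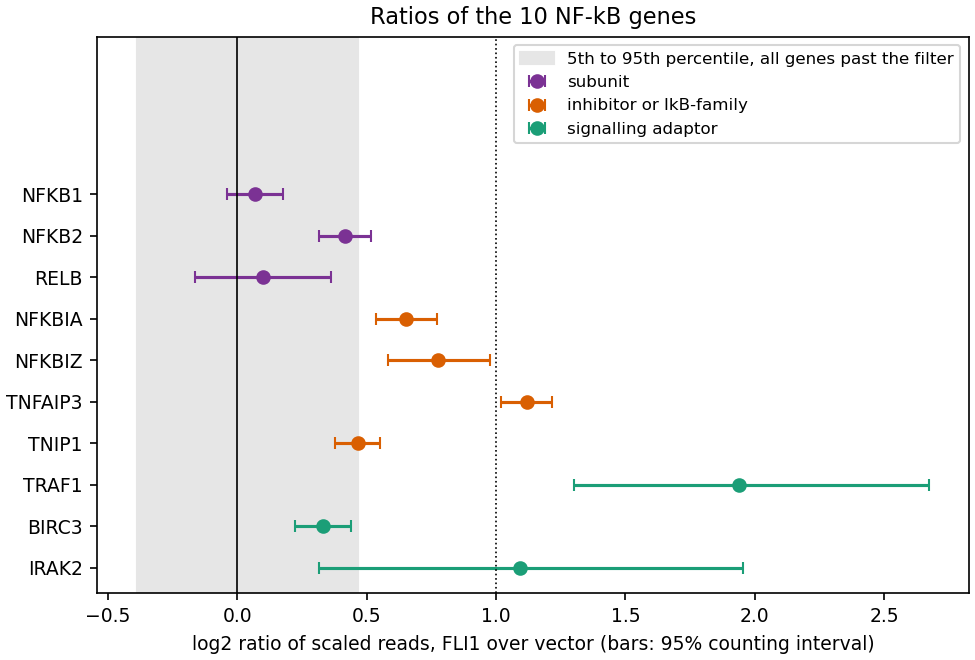
Log2 ratio of scaled reads, FLI1 over vector, of each of the 10 genes, coloured by role, with bars for the 95% counting interval. The grey band is the 5th to 95th percentile of all 11659 genes past the filter (-0.39 to 0.47), the solid line marks 0 and the dotted line 2-fold; TRAF1 and TNFAIP3 have intervals wholly to the right of the dotted line and NFKB1 and RELB have intervals that include 0.

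The ratios of the 10 genes differed among themselves beyond counting error. Of the 45 pairs, 32 had a quotient of ratios whose 95% interval excluded 1, with no adjustment for the number of pairs. Each of the 12 pairs of an inhibitor or IkB-family gene with a subunit had the larger ratio in the inhibitor or IkB-family gene, and in 11 of the 12 the interval excluded 1. The quotient of TNFAIP3 over NFKB1 was 2.07 (interval 1.87 to 2.29). The exception was TNIP1 over NFKB2, at 1.04 (0.944 to 1.14). These pairs cover the members alone. IkB genes outside them had intervals that include 0: NFKBIB (log2 ratio 0.18, -0.06 to 0.42), NFKBIE (0.05, -0.25 to 0.34), BCL3 (0.30, -0.05 to 0.66), NFKBID (-0.26, -0.88 to 0.34) and NFKBIL1 (-0.32, -0.67 to 0.03). Of the subunit genes outside them, RELA was at 0.32 (0.21 to 0.44) and REL at 0.12 (-0.01 to 0.24). When the 10 genes were ordered by ratio, 2 of the 9 neighbouring pairs had an interval that excluded 1, so 7 neighbouring places are not told apart by these reads.

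**Figure D3:**
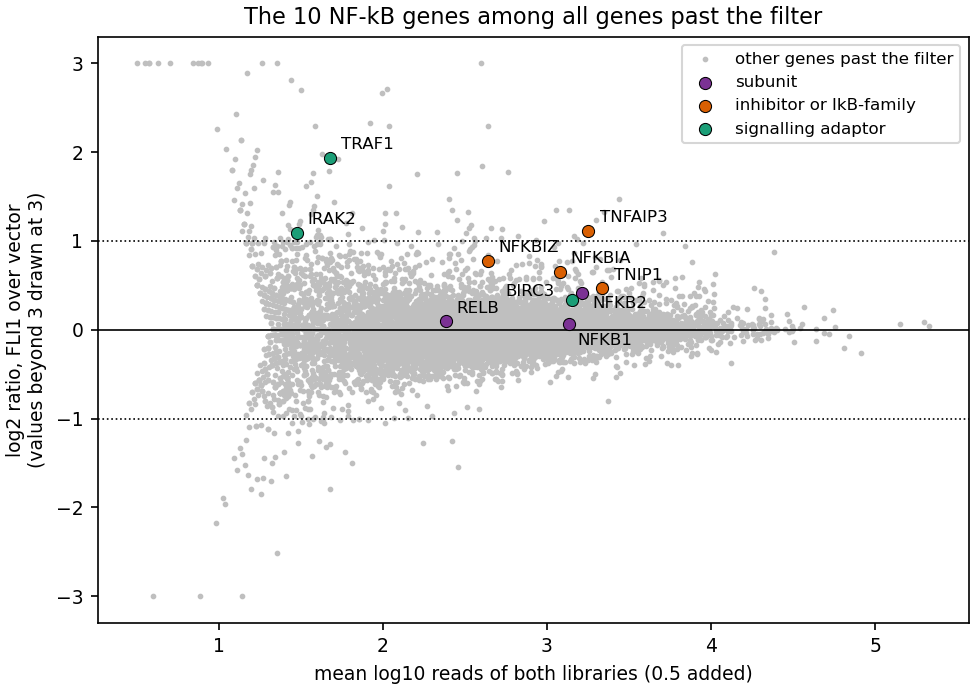
Log2 ratio, FLI1 over vector, against the mean log10 reads of both libraries for all genes past the filter (grey) and the 10 NF-kB genes (coloured by role), with dotted lines at 2-fold. TNFAIP3 (2604 and 1206 reads) lies above the upper dotted line, TRAF1 (93 and 24 reads) and IRAK2 (43 and 20 reads) lie where the cloud is wide, and NFKB1 and RELB lie near 0.

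The transcript table splits these genes into 50 RefSeq transcripts, and 3 genes, NFKBIA, TRAF1 and IRAK2, have 1 transcript each. Reads given to a transcript are the authors' estimates, so the intervals here leave out the error of assigning reads. NFKBIZ has 2 transcripts. NM_031419, which codes for 718 residues, had 439.07 estimated reads in the FLI1 library and 283.60 in the vector library (log2 ratio 0.64, interval 0.42 to 0.86). NM_001005474, which codes for 618 residues, had 133.93 in the FLI1 library and 52.40 in the vector library (1.36, 0.90 to 1.86). The shorter form thus made up 23.4% of the reads of NFKBIZ in the FLI1 library and 15.6% in the vector library (odds ratio 1.67, interval 1.16 to 2.42).

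For TNFAIP3, 6 of its 8 transcripts had an interval above 0 and 1 had an interval below it. The lower one was the predicted model XM_005267119, with 0 estimated reads in the FLI1 library and 18.61 in the vector library. The upper limit of its log2 interval was -2.21. NM_006290, its most abundant transcript in both libraries, had 1106.93 estimated reads in the FLI1 library and 434.77 in the vector library (log2 ratio 1.35, interval 1.19 to 1.52). The 3 TNFAIP3 transcripts matched to a coding length all code for 790 residues and together held 65.9% of the reads of the gene in the FLI1 library and 62.9% in the vector library. The 5 TNFAIP3 transcripts with no matched coding length, XM_005267119 among them, summed to 889.14 estimated reads in the FLI1 library and 447.94 in the vector library. BIRC3 was read almost wholly as NM_001165, with 1545.73 estimated reads in the FLI1 library and 1188.73 in the vector library. Its transcript NM_182962, which codes for the same 604 residues, had 0.01 estimated reads in the FLI1 library and 53.02 in the vector library. The upper limit of its log2 interval was -3.79. The reads of NM_182962 are few beside the total of the gene.

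The transcripts of TNIP1 differed in direction: 7 of its 15 had an interval above 0 and 3 one below it. NM_006058, the leading transcript in both libraries, had 599.83 estimated reads in the FLI1 library and 670.10 in the vector library (log2 ratio -0.15, interval -0.31 to 0.01). NM_001252386, which codes for 583 residues, had 544.99 in the FLI1 library and 343.72 in the vector library (0.67, 0.47 to 0.87). The predicted model XM_017008950 had 262.28 in the FLI1 library and 13.06 in the vector library (4.29, 3.54 to 5.27). It thus made up 10.4% of the reads of TNIP1 in the FLI1 library and 0.708% in the vector library. The 15 TNIP1 transcripts share most of their sequence, and how well reads can be told apart among them was not tested. Over the subunits the split also moved: the RELB transcript NM_006509 held 61.1% of the reads of RELB in the FLI1 library and 76.3% in the vector library, and the NFKB2 transcript NM_002502 held 49.9% of those of NFKB2 in the FLI1 library and 41.5% in the vector library.

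**Figure D4:**
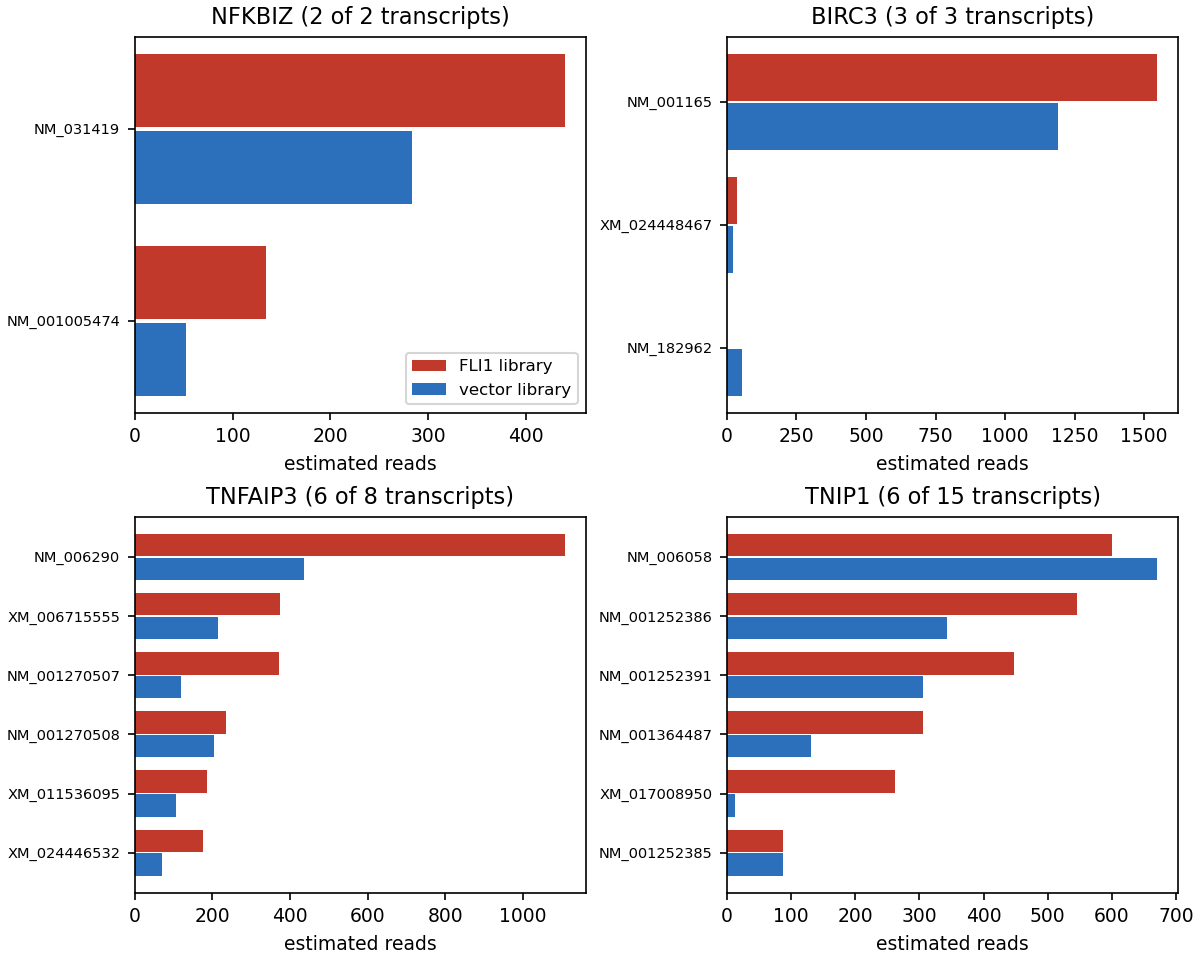
Estimated reads of the transcripts of NFKBIZ, BIRC3, TNFAIP3 and TNIP1 (at most the 6 with the most reads in the FLI1 library), red for the FLI1 library and blue for the vector library, 1 library each, with an axis of its own for each gene. Both NFKBIZ transcripts are longer in red, the BIRC3 transcript NM_182962 has a bar in blue alone, and the TNIP1 model XM_017008950 (262.28 and 13.06 estimated reads) is far longer in red while NM_006058 is slightly longer in blue.

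The rest of the pathway was read from 7 lists with 125 genes, of which 119 are in the table and 105 passed the filter. Their median log2 ratio was 0.12, and the interval lay above 0 for 39 and below 0 for 4. The counts of each list are to be read against the 16.5% of all genes past the filter with an interval above 0 and the 14.7% with one below it. In the 6 lists of signalling genes, the interval lay above 0 for 21 of 78 genes and below 0 for 3, 0 were at least 2-fold different and the median was 0.07. The list of target genes stood at 18 of 27 above and 1 below, with a median of 0.41.

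Receptors had intervals above 0 for 6 of 16 and below 0 for none, a larger and a smaller share than among all genes, and all 6 differences were below 2-fold. Their median was 0.05, and 0.14 at a minimum of 1 or of 100 reads. IL1R1, the signalling receptor for interleukin-1, had 311 reads in the FLI1 library and 249 in the vector library (log2 ratio 0.33, interval 0.08 to 0.57), and the Toll-like receptor genes TLR3 (0.29) and TLR2 (0.27) followed. Among the other adaptors the median was 0.11, with intervals above 0 for 6 of 20 and below 0 for 1. TICAM1, the adaptor of TLR3, had 727 reads in the FLI1 library and 488 in the vector library (0.58, 0.42 to 0.75), and MYD88, the adaptor of most Toll-like and interleukin-1 receptors, had 636 and 495 (0.37). TRAF5, a TRAF-family adaptor, was the lower gene, with 195 reads in the FLI1 library and 314 in the vector library (-0.68, -0.94 to -0.42), the opposite side from TRAF1.

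Of the IkB kinases, kinases that act on them and their partner proteins, 1 of 11 had an interval above 0 and 1 below it. These counts are too small to be told apart from the shares of all genes, and the median was 0.03. MAP3K8, a kinase held by the NFKB1 precursor, had 513 reads in the FLI1 library and 400 in the vector library (log2 ratio 0.37, interval 0.18 to 0.56), and TAB1, a partner of the kinase MAP3K7, had 388 and 477 (-0.29, -0.49 to -0.09). Of the ubiquitin enzymes, 1 of 9 had an interval above 0, RNF31 of the linear ubiquitin ligase complex (0.17), and the median was 0.05. Among the 7 other Rel and IkB genes, RELA, the main transactivating partner of the NFKB1 product, had the only interval above 0, with 1338 reads in the FLI1 library and 1075 in the vector library (0.32, 0.21 to 0.44). None of the 7 had an interval below 0, and the median was 0.12. The interval of RELA did not overlap that of NFKB1 (0.07, -0.04 to 0.18).

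Other negative regulators showed 6 of 15 intervals above 0 and 1 below it, with a median of 0.07. TNIP2, a relative of TNIP1, had 486 reads in the FLI1 library and 374 in the vector library (log2 ratio 0.39, interval 0.19 to 0.58). CYLD, a deubiquitinase of NF-kB signalling, was at 0.36 (0.20 to 0.52) and ITCH, a ubiquitin ligase that works with TNFAIP3, at 0.36 (0.28 to 0.44). The lower gene was TRAFD1 (-0.14), named after its value was seen. TNIP2, CYLD and ITCH had smaller ratios than the 4 inhibitor and IkB-family genes above, but all 3 intervals overlap that of TNIP1 (0.38 to 0.55). The interval of TNIP2 also overlaps those of NFKBIA (0.54 to 0.77) and NFKBIZ (0.58 to 0.98).

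Of the 27 target genes past the filter, 5 were at least 2-fold higher and 0 lower, against 1.19% and 0.48% of all genes past the filter. These were the chemokine genes CCL5 (971 reads in the FLI1 library and 199 in the vector library, log2 ratio 2.29) and CCL22 (239 and 112 reads, 1.10), the interleukin-1 genes IL1A (493 and 224 reads, 1.14) and IL1B (951 and 460 reads, 1.05), and MMP9, a gelatinase (29 and 8 reads, 1.80, interval 0.70 to 3.21). MMP9 passed the filter through the FLI1 library alone, where it is high, so its place in this count is partly set by the filter, while the other 4 had over 100 reads in both libraries. The deposited counts of CCL5 were not whole (970.62 and 198.83 reads), so its value is less certain than those of the 10 genes. TNFAIP2, named after its value was seen, was the gene with an interval below 0, at 980 reads in the FLI1 library and 1375 in the vector library (-0.48). Some listed targets are also raised by factors other than NF-kB, and the list was chosen with results of these data known.

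**Figure D5:**
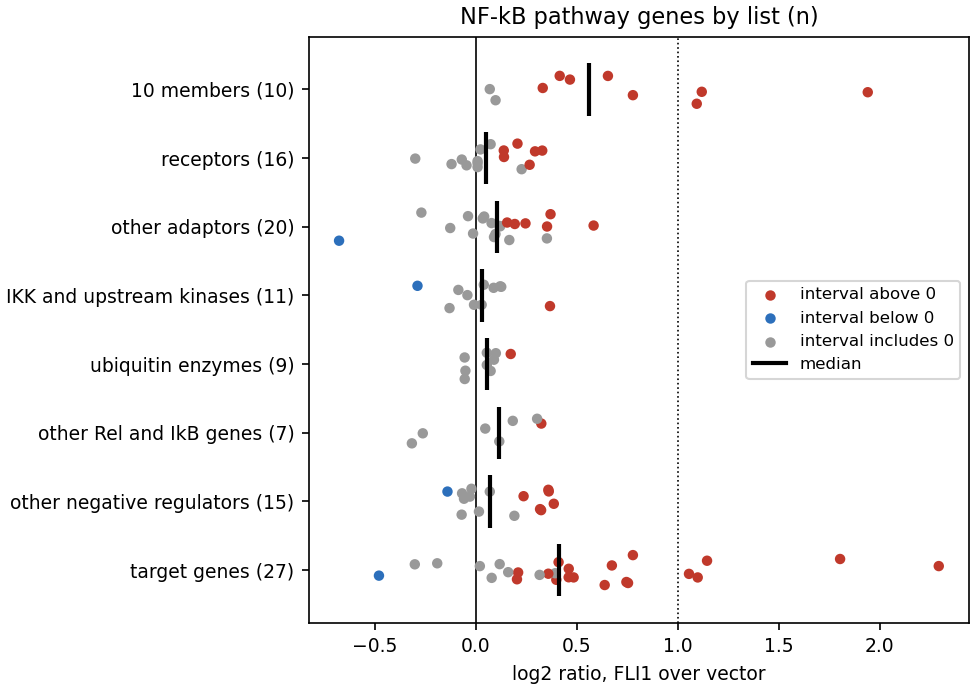
Log2 ratio, FLI1 over vector, of each gene past the filter in the set of 10 genes and in 7 lists of other NF-kB pathway genes (number of genes in brackets); black bars are medians, red points have a 95% counting interval above 0, blue points one below 0 and grey points one that includes 0. The medians are 0.56 for the 10 genes, 0.03 to 0.12 for the 6 lists of signalling genes and 0.41 for the target genes. The 10 genes and the lists were chosen with earlier results of these data known.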

How the data were processed

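RNA-seq of 2 HaCaT libraries, 1 per plasmid, was used. Sequencing was on BGISEQ, per the labels' protocols, and the submitters' processing notes name build GRCh38.p13. For aligner, counter, annotation and strandedness the entry is: not given in the sources used here. Deposited gene and transcript tables (61479 transcripts) hold estimated counts, which the authors' quantifier assigned to features, per the file headers. They also hold FPKM and TPM. Estimated counts were rounded to whole numbers. The deposited FPKM values gave levels, and the deposited TPM values an alternative scale.

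Scaling was by TMM (edgeR 4.0.16, R 4.3.3; factors 0.991 for FLI1, 1.01 for vector). The log2 ratio used counts plus 0.5. The 95% interval was an exact conditional (Clopper-Pearson) interval, with a half-width of 0.97 on the log2 scale at 20 reads per library and 0.13 at 1000. Genes needed 20 reads in at least 1 library. Quotients of ratios had exact conditional odds ratio intervals (scipy 1.17.1). The code was tested on simulated data. DESeq2 1.42.0 size factors were an alternative.

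Positions, overlaps and coding lengths came from GENCODE release 29 (GRCh38), promoters from RefSeq. The members and lists were chosen with earlier results of these data known. Named from each list were genes at least 2-fold different, or else up to 3 with an interval beyond 0, the largest first. The NF-kB consensus and the ETS motif, 10 and 8 bases long, were searched on both strands.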

Additional observations from a re-analysis of the deposited data

How the results depend on the processing

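The 10 log2 ratios stayed above 0 under all alternatives that gave a value: DESeq2 size factors or library totals in place of TMM, 3 reads added, minima of 1 or 100 reads, FPKM with 0.5 or 1 added and TPM with 0.5 added. TNFAIP3 ran from 1.05 to 1.12, NFKBIA from 0.62 to 0.65 and NFKBIZ from 0.68 to 0.78. Scaled by library totals, the interval of TNFAIP3 no longer lies wholly above 2-fold. TRAF1 fell to 1.19 with 0.5 and 0.87 with 1 added to FPKM (its 0.41 FPKM in the vector library is less than either amount added), and IRAK2 reached a low of 0.42. With 1 added to FPKM, the median was 0.45 and 1 of the 10 genes passed 2-fold. At a minimum of 100 reads, which leaves out TRAF1 and IRAK2, the median was 0.44, 1 gene passed 2-fold and 3 passed 1.5-fold. The count of intervals above 0 and the counts over the pathway lists stayed within 1.5 times under all alternatives that gave an interval. By transcript TPM, the leading transcript held 95.4% of BIRC3 in the FLI1 library, against 97.8% by reads, and the share for TNIP1 also moved. The looser NF-kB consensus was found in 9 of the 16 windows, against 4925 of all 35116. It takes in every match to the stricter consensus, so at least 9 had to follow and this is no check. The longer ETS motif ACCGGAAGT was in 0 of 16, against 351 of 35116. It contains the motif CCGGAAGT, so its 0 of 16 had to follow and is no check. No looser ETS motif was tried. No paired analysis was possible because each group has 1 library, and no replicate could be left out.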
